A study of Mus musculus with 31 samples.

Results

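Conventional type 2 dendritic cells (cDC2) sorted from infarcted mouse hearts were compared with cDC2 sorted from hearts in the steady state. The comparison takes every library whose title names cDC2, which is 7 of the 31 libraries of the series: 3 after myocardial infarction (MI 1 to 3) and 4 in the steady state (SS 1 to 4). All mice were Balb/c and 8 to 12 weeks old. MI was made by tying off the left anterior descending coronary artery for good. The SS hearts had no such ligation named in the labels, and a sham operation is not mentioned. After digestion of the tissue with Liberase and DNase, FACS was used to sort cDC1, cDC2 and monocyte-derived cells, the last split by CD11c into positive cells (called moDCs here) and negative cells (called macrophages here). The 3 other types had 8 libraries each, also from MI and SS hearts. The sources used here give neither the time after ligation nor the sex of the mice or the sorting antibodies. They also leave out whether a library stands for 1 animal or for a pool, so p-values measure the spread between these libraries, which may be technical.

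Conventional dendritic cells take up antigen in a tissue, carry it to the draining lymph node and present it to T cells. The cDC2 subset depends on the transcription factor Irf4, carries Sirpa and CD11b, and is known for presenting antigen on MHC class II to CD4 T cells. In the heart, cDC2 share several surface molecules with monocyte-derived cells and macrophages, so the sorted cells were first checked against markers.

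Cd209a and Xcr1 went with the cDC2 label, while the monocyte and macrophage list was also high in SS cDC2. Cd209a, a C-type lectin of cDC2, had a mean of 2393 ± 371 CPM (SD, n = 3) in MI cDC2 and 2257 ± 287 CPM (SD, n = 4) in SS cDC2. CPM are counts of reads scaled to the library size with TMM factors. In SS cDC1, SS moDC and SS macrophages the same gene was at 21.9, 406 and 16.02 CPM. Xcr1, the chemokine receptor that marks cDC1, was at 3.53 CPM in SS cDC2 against 909.7 CPM in SS cDC1. The 17 listed cDC2 markers, Cd209a among them, summed to 6419 to 7275 CPM in the MI libraries and 5526 to 7169 CPM in the SS libraries. The sum was at most 3831 CPM in any SS moDC library. The 17 listed monocyte and macrophage markers summed to 24290 to 36618 CPM in the SS cDC2 libraries and 8040 to 12044 CPM in the MI cDC2 libraries. In SS cDC1, SS moDC and SS macrophages the sums were 3724 to 4015, 37801 to 44055 and 46664 to 58091 CPM. Their levels by gene are given with the genes they move with. The 7 libraries held 9877484 to 11187159 reads assigned to genes. Reads in no annotated feature made up 8.36% to 9.54% in MI and 6.42% to 14.6% in SS, where SS 1 and SS 4 were high and SS 2 and SS 3 low.

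After infarction 1440 of 13039 tested genes differed in cDC2 (11.0% of those tested, adjusted p under 0.05, edgeR's quasi-likelihood test with Benjamini-Hochberg adjustment over all tested genes). Of these, 575 were higher (4.41%) and 865 lower (6.63%), and the counts for gene lists stand against these shares of all tested genes. A change of at least 2-fold was fitted for 246 of the higher and 492 of the lower genes. The median log2 change over all tested genes was -0.03. All MI libraries lay outside the range of all SS libraries for 3012 genes (23.1%), and 1319 of the 1440 changed genes were among them. Where single changed genes are said below not to overlap, that stands against these shares. The first principal component of the 7 libraries held 47.3% of the variance and put MI 1 to 3 at -47.4, -42.9 and -35.3 and SS 1 to 4 at 33.4, 48.3, 25.4 and 18.4, so the groups did not overlap on it. The counts depended on single libraries. Without MI 1 they fell to 345 higher and 538 lower genes, without MI 2 to 397 and 526, and without SS 2 to 375 and 613. With SS 1 and SS 4 as the only SS libraries they were 270 and 461, and with SS 2 and SS 3 alone 574 and 853. Of the genes chosen by the naming rules and described as changed, those that did not pass against SS 1 and SS 4 alone were Adam23, B2m, C5ar1, Ccnd1, Ccr6, Cdh1, Clec7a, Cxcl9, Cycs, Fcgr1, Ffar2, Gpnmb, H2-D1, H2-DMa, Ifit2, Il18, Ltb, Ndrg1, Nfkbie, Pdk1, S1pr5, Sod2, Tgfb1, Tnfaip2, Tnfsf9 and Xbp1 (adjusted p 0.0523 to 0.332). Those that did not pass against SS 2 and SS 3 alone were Adam23, Bnip3, Ccnd1, Ccr6, Edem1, Gpnmb, Ifi30, Klf2, Klf6, Ltb, S1pr5 and Tnfrsf9 (adjusted p 0.0531 to 0.173). With the cDC2 libraries fitted alone B2m and H2-D1 did not pass (adjusted p = 0.0975 and 0.07202).

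**Figure D1:**
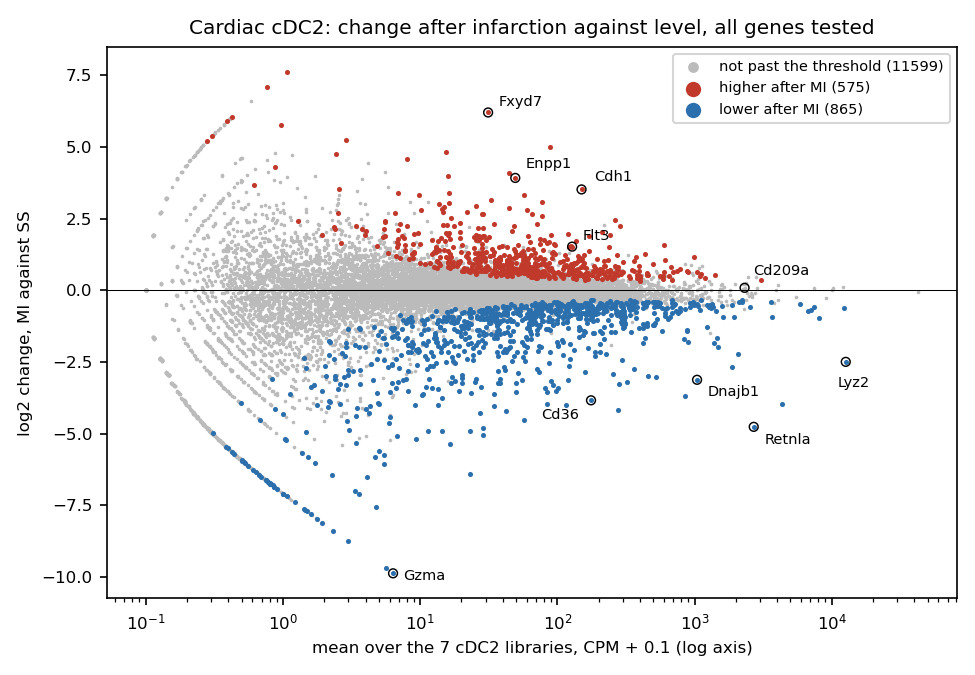
Each point is 1 of the 13039 genes tested in cDC2, placed by its mean over the 7 libraries in CPM plus 0.1 (horizontal log axis) and by its fitted log2 change, MI against SS (vertical axis). The 575 higher genes (red) and 865 lower genes (blue) lie on both sides of 0, Retnla and Lyz2 are among the falls at high levels, and the curved rows at the left are genes without reads in 1 group, whose fitted change depends on the prior count.

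The largest rises formed no single family. Fxyd7, a regulator of the sodium-potassium pump (chr7:31042513-31051467, minus strand on mm10), stood at 73.3, 71.9 and 69.3 CPM in MI 1 to 3 and at 1.37, 0.426, 1.09 and 0.936 CPM in SS 1 to 4. It rose 73.6-fold (log2 6.201 ± 0.66 SE, adjusted p = 1.43e-07). The MI libraries lay within a narrow band and every SS library was below 2 CPM. Enpp1, an ectoenzyme that breaks down extracellular ATP and cyclic GMP-AMP (chr10:24637914-24712159, minus strand), was at 96.1, 107 and 114 CPM in MI 1 to 3 and at 3.73, 4.05, 9.63 and 10.5 CPM in SS 1 to 4. Its rise was 15.1-fold (log2 3.92 ± 0.39 SE, adjusted p = 5.28e-08), with no overlap. Ifitm1, an interferon-induced membrane protein, was at 104, 313 and 174 CPM in MI 1 to 3 and at 2.65, 6.600, 6.35 and 9.08 CPM in SS 1 to 4. It rose 31.8-fold (log2 4.99 ± 0.90 SE, adjusted p = 0.00043), and MI 2 was the highest of the MI libraries.

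Cdh1 encodes E-cadherin, an adhesion molecule that dendritic cells can carry, and was measured at 251, 422 and 268 CPM in MI 1 to 3 and at 22.6, 20.7, 21.99 and 44.2 CPM in SS 1 to 4. The gain was 11.4-fold (log2 3.52 ± 0.72 SE, adjusted p = 0.00157), although DESeq2 (adjusted p = 0.0617) and the comparison with SS 1 and SS 4 alone (adjusted p = 0.0523) did not pass. Arhgap24, a GTPase-activating protein, rose 28.5-fold (log2 4.83 ± 0.67 SE, adjusted p = 7.07e-06), and 66.3-fold without SS 1, which held most of its SS reads. Slc16a14, of the monocarboxylate transporter family, rose 23.96-fold, the short-chain fatty acid receptor Ffar2 16.02-fold, Cep170b 10.6-fold, the secreted protein Lgi4 10.4-fold and the phosphatase Ppm1j 9.902-fold (adjusted p = 0.000696, 0.00587, 6.7e-06, 5.15e-07 and 0.000133). Of these, Ffar2 did not pass against SS 1 and SS 4 alone (adjusted p = 0.0737).

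The largest falls included secreted and lipid-handling proteins. Retnla, which encodes the secreted protein RELM-alpha (chr16:48842551-48844461, plus strand), was measured at 214, 96.7 and 197 CPM in MI 1 to 3 and at 3422, 6317, 4872 and 3786 CPM in SS 1 to 4. It fell 27.2-fold (log2 -4.77 ± 0.62 SE, adjusted p = 6.77e-06), and the highest MI library held 214 CPM against 3422 CPM in the lowest SS library. Hpgd, the enzyme that inactivates prostaglandins, was at 2.07, 4.26 and 6.36 CPM in MI 1 to 3 and at 125, 126, 66.4 and 71.4 CPM in SS 1 to 4 and fell 22.9-fold (log2 -4.52 ± 0.54 SE, adjusted p = 2.13e-06). Fabp4, a fatty acid binding protein also found in capillary endothelium, was at 1.41, 0.297 and 2.12 CPM in MI 1 to 3 and at 59.6, 72.3, 12.3 and 11.7 CPM in SS 1 to 4. Its fall was 30.1-fold (log2 -4.91 ± 0.93 SE, adjusted p = 0.000674), with SS 1 and SS 2 far above SS 3 and SS 4. Gzma, a granzyme of cytotoxic lymphocytes, had no read in any MI library and stood at 6.18, 13.9, 11.1 and 12.5 CPM in SS 1 to 4. That is at least 102-fold lower in MI when 3 reads are set over the MI group, and covers counting error only. Markers of natural killer cells, Gzma among them, summed to 23.8 to 25.4 CPM in MI and 23.7 to 39.3 CPM in SS. Endothelial markers, with Fabp4 as a member, summed to 44.9 to 57.7 and 48.5 to 160.1 CPM.

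Several of the largest falls had their highest value in SS 1. The sphingosine phosphate receptor gene S1pr5 was at 0, 1.39 and 0 CPM in MI 1 to 3 and at 96.1, 30.2, 19.1 and 15.3 CPM in SS 1 to 4. Its fitted fall of 85.96-fold (adjusted p = 0.0219) became 45.9-fold without SS 1 (adjusted p = 0.0586), and all of its MI reads were in MI 2. It also did not pass without MI 1 (adjusted p = 0.107) or MI 3 (adjusted p = 0.0902). Treml4, a receptor of the TREM family, was at 5.46, 10.4 and 20.3 CPM in MI 1 to 3 and at 374, 194, 117 and 83.7 CPM in SS 1 to 4 and fell 15.9-fold (log2 -3.99 ± 0.65 SE, adjusted p = 0.000113). Without SS 1 the fall was 10.9-fold, and without MI 3 it was 24.2-fold. The serpin gene Serpinb10 was at 0.941, 1.39 and 2.89 CPM in MI 1 to 3 and at 111, 47.9, 20.8 and 14.5 CPM in SS 1 to 4 and fell 27.8-fold (log2 -4.795 ± 1.17 SE, adjusted p = 0.00705). It fell 15.8-fold without SS 1 and did not pass without MI 1 (adjusted p = 0.0551). Nrarp, a target and inhibitor of Notch signalling, was at 0.565, 0.397 and 0.963 CPM in MI 1 to 3 and at 46.2, 15.9, 9.41 and 6.36 CPM in SS 1 to 4. It fell 29.8-fold (log2 -4.897 ± 0.86 SE, adjusted p = 0.000159), and 16.1-fold without SS 1. In these 4 genes SS 1 was highest and SS 4 lowest, and every SS library lay above every MI library.

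**Figure D2:**
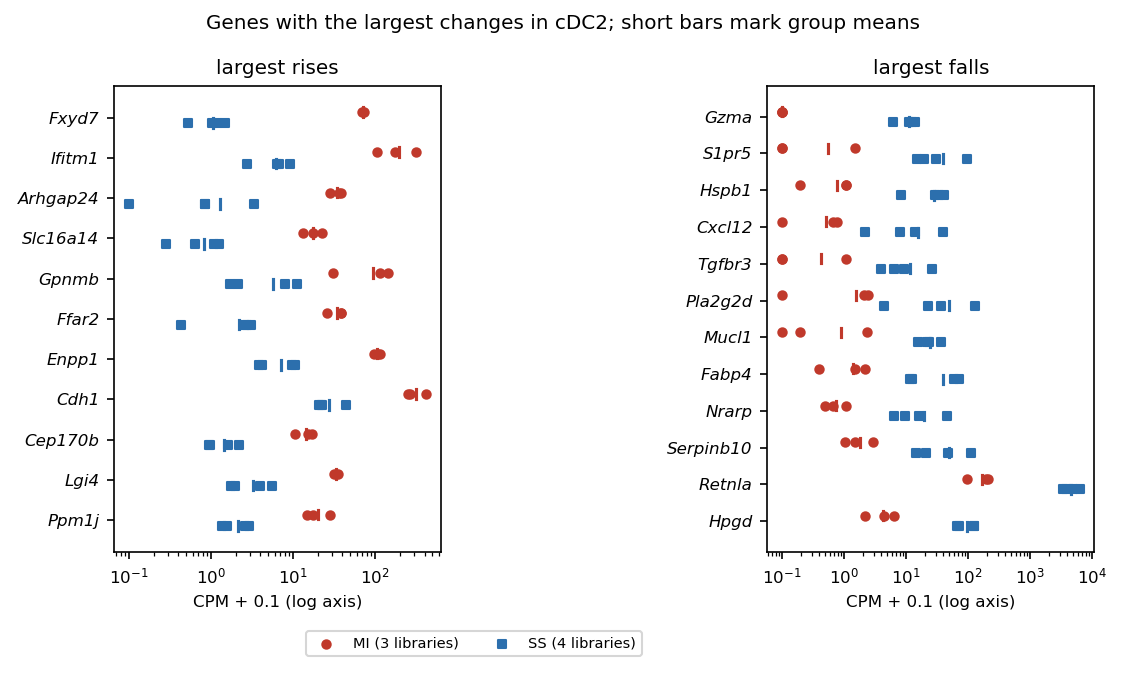
11 of the 12 largest rises (left) and the 12 largest falls (right) in cDC2, with CPM plus 0.1 of each library on a log axis; red circles are the 3 MI libraries, blue squares the 4 SS libraries, and short bars the group means. No MI library overlaps an SS library in any of the 23 genes, a condition by which they were chosen, and the SS points of S1pr5, Pla2g2d and Serpinb10 are widely spread.

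Many genes typical of monocytes and macrophages were lower in MI cDC2, though the summed classical monocyte list overlapped between the groups. Of 17 tested genes of monocyte and macrophage identity, 10 fell, 1 rose and 6 did not pass (median log2 change -0.93). Of 29 tested genes of resident cardiac macrophages, 17 fell and 1 rose (median -1.46), and of 14 classical monocyte genes 3 fell and none rose (median -0.599). With each library left out in turn, 11 to 17 resident macrophage genes fell, with 11 without MI 2, and 5 to 10 identity genes, with 5 without MI 2 or SS 2. The classical monocyte count was 1 without MI 1. Over all tested genes 6.63% fell, as given with the counts. The summed CPM of the identity list was 8040.2 to 12044 in MI cDC2 and 24290.4 to 36618 in SS cDC2 (two-sided exact permutation p = 0.0571, the smallest that 3 against 4 libraries allow). For the resident list it was 1234 to 1867 in MI and 2695 to 4351 in SS (exact permutation p = 0.0571). The same resident list summed to 31451 to 38696 CPM in SS macrophages and 23266 to 26815 CPM in MI macrophages. In cDC2 the classical monocyte list summed to 3093 to 4109 CPM in MI and 3669 to 4611 CPM in SS (exact permutation p = 0.286). One resident marker, Cd209f, had no read in any cDC2 library, and no identity marker was at 0. In bulk samples fewer cells of a type and less RNA per cell cannot be told apart. The part of other cells in the sorted fraction was not tested.

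Lyz2, the lysozyme of myeloid cells, made up much of the identity sum, with 3633, 2168 and 4580.1 CPM in MI 1 to 3 and at 14335, 25118, 23407 and 15333 CPM in SS 1 to 4. It fell 5.65-fold (log2 -2.498 ± 0.22 SE, adjusted p = 2.68e-09). Its near-identical neighbour Lyz1, which can share reads with it, was at 494, 269 and 622 CPM in MI 1 to 3 and at 4626, 9784, 8163 and 6433 CPM in SS 1 to 4 and fell 15.7-fold (log2 -3.97 ± 0.33 SE, adjusted p = 4.21e-09). Both were lower in every MI library than in any SS library. F13a1, a coagulation factor subunit made by resident macrophages, was at 52.3, 33.9 and 55.3 CPM in MI 1 to 3 and at 336, 522, 492 and 478 CPM in SS 1 to 4 and fell 9.68-fold (log2 -3.27 ± 0.31 SE, adjusted p = 3.83e-08). Cd163, the haemoglobin scavenger receptor, was at 25.8, 21.3 and 37.4 CPM in MI 1 to 3 and at 79.5, 120.4, 99.7 and 146 CPM in SS 1 to 4 and fell 3.95-fold (log2 -1.98 ± 0.27 SE, adjusted p = 4.18e-06). Sepp1, which encodes selenoprotein P, fell 2.31-fold (log2 -1.21 ± 0.18 SE, adjusted p = 1.16e-05), and the adhesion receptor gene Adgre1 (F4/80) fell 2.78-fold (log2 -1.48 ± 0.21 SE, adjusted p = 1.06e-05). Cebpb, a transcription factor of the monocyte lineage, was at 329, 364 and 432 CPM in MI 1 to 3 and at 1500.3, 1612, 1025 and 1053 CPM in SS 1 to 4, a fall of 3.46-fold (log2 -1.79 ± 0.27 SE, adjusted p = 2.73e-05).

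The identity list did not move as 1 block. Fcgr1, the high-affinity IgG receptor CD64 used to tell monocyte-derived cells from cDC2, was at 72.5, 77.8 and 102 CPM in MI 1 to 3 and at 50.4, 43.6, 22.5 and 30.98 CPM in SS 1 to 4. It rose 2.28-fold (log2 1.19 ± 0.30 SE, adjusted p = 0.00814) and did not pass without MI 3 (adjusted p = 0.0551). Ccr2, the receptor that brings monocytes into tissue, was at 1981, 2024 and 2439 CPM in MI 1 to 3 and at 1607, 1771, 1728 and 2245 CPM in SS 1 to 4 and did not pass (log2 0.23, adjusted p = 0.335). The fractalkine receptor gene Cx3cr1 did not pass either (log2 -0.11, adjusted p = 0.815). Ly6c2, a surface marker of classical monocytes, was at 0, 0.0992 and 0.289 CPM in MI 1 to 3 and at 12.9, 15.9, 1.86 and 1.31 CPM in SS 1 to 4. It fell 56.98-fold (log2 -5.83 ± 1.17 SE, adjusted p = 0.00112). The MI libraries held 4 reads of it in all, most of them in MI 3, and SS 1 and SS 2 were far above SS 3 and SS 4. Without SS 2 the fitted fall was 38.4-fold. Timd4 was the resident macrophage gene that rose. It encodes TIM-4, a receptor for phosphatidylserine on dying cells, and was at 109.7, 131 and 75.7 CPM in MI 1 to 3 and at 11.3, 28.8, 47.4 and 26.4 CPM in SS 1 to 4. The rise was 3.705-fold (log2 1.89 ± 0.33 SE, adjusted p = 0.000258), with no overlap, and it was between 3.08-fold and 4.75-fold with each library left out in turn.

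The genes that separate macrophages from cDC1 in the steady state were common among those that changed in cDC2. This comparison shares no library with that of cDC2. Both come from the same fit with the same estimate of the spread of each gene, so their calls are not independent. How far this raised the shares below was not tested. In all, 2860 of the 13039 genes were higher in SS macrophages than in SS cDC1 (21.9%) and 2720 were higher in SS cDC1 (20.9%). Of the 865 genes that fell in cDC2, 362 were higher in macrophages (41.8%) and 241 were higher in cDC1 (27.9%). Of the 575 that rose, 193 were higher in macrophages (33.6%) and 181 in cDC1 (31.5%). Among genes that did not pass in cDC2 the shares were 19.9% and 19.8%.

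**Figure D3:**
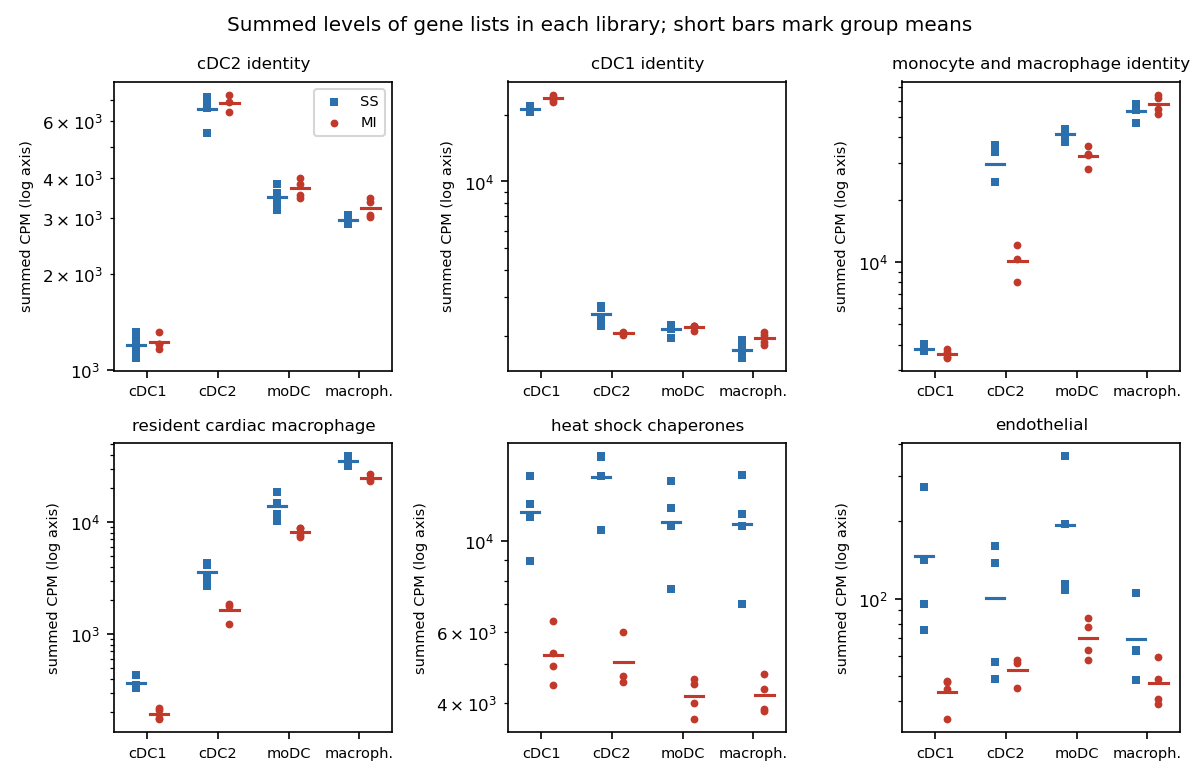
Summed CPM of 6 gene lists (log axes) in each library of the 4 sorted cell types; blue squares are SS and red circles MI libraries, and short bars are group means. In cDC2 the monocyte and macrophage list lies at 8040.2 to 12044 CPM in MI and 24290.4 to 36618 CPM in SS, the cDC2 list overlaps between MI and SS, and the heat shock list is lower in MI in all 4 types.

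The share of changed genes among those that define cDC2 was close to that of all tested genes. Of 17 cDC2 identity genes 2 rose and none fell (median log2 change 0.08), where 11.0% of all tested genes changed, and 1 fell without SS 1. Falls numbered 3 at an unadjusted p under 0.05 in edgeR and 1 by DESeq2. Irf4 was at 79.9, 103 and 103 CPM in MI 1 to 3 and at 66.5, 68.7, 105 and 107 CPM in SS 1 to 4 and did not pass (log2 0.13, adjusted p = 0.828). Cd209a (log2 0.08, adjusted p = 0.926), Mgl2 (log2 -0.53, adjusted p = 0.462), Sirpa (log2 0.52, adjusted p = 0.301), Itgam (log2 -0.27, adjusted p = 0.367) and Clec10a (log2 0.67, adjusted p = 0.0834) did not pass either. With the cDC2 libraries fitted alone, Clec10a (adjusted p = 0.0081) and Sirpa (adjusted p = 0.0123) passed, and Clec10a also passed by DESeq2 (adjusted p = 0.0431). The 2 that rose were Ffar2 and Ltb, the membrane form of lymphotoxin. Ltb was at 176, 236 and 242 CPM in MI 1 to 3 and at 139, 86.9, 102 and 78.3 CPM in SS 1 to 4 and rose 2.15-fold (log2 1.104 ± 0.32 SE, adjusted p = 0.0231), but did not pass without MI 2, MI 3, SS 2 or SS 4 (adjusted p up to 0.0847).

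Of 15 genes shared by conventional dendritic cells, 3 rose and 2 fell (median 0.42). Flt3, the cytokine receptor on which dendritic cell development depends, was at 217, 195 and 199.8 CPM in MI 1 to 3 and at 78.1, 67.6, 51.6 and 86.9 CPM in SS 1 to 4. It rose 2.87-fold (log2 1.52 ± 0.26 SE, adjusted p = 0.000182), and the lowest MI library was far above the highest SS library. Ciita, the master regulator of MHC class II genes, was at 343, 351 and 301 CPM in MI 1 to 3 and at 154, 115, 169.7 and 196 CPM in SS 1 to 4 and rose 2.09-fold (log2 1.06 ± 0.21 SE, adjusted p = 0.000689). Kit, the stem cell factor receptor, named after its values were seen, was at 141, 182 and 142 CPM in MI 1 to 3 and at 31.7, 35.2, 63.03 and 34.1 CPM in SS 1 to 4 and rose 3.78-fold (log2 1.92 ± 0.50 SE, adjusted p = 0.0118), a call lost without MI 2. The markers of mast cells and basophils, of which Kit is one, summed to 141 to 182 CPM in MI and 34.7 to 64.1 CPM in SS, and no other member of that list changed. Id2, a helix-loop-helix inhibitor needed for dendritic cell development, was at 451, 427 and 331 CPM in MI 1 to 3 and at 589, 1044, 864 and 750.1 CPM in SS 1 to 4 and fell 2.01-fold (log2 -1.01 ± 0.18 SE, adjusted p = 0.000246). Zbtb46 (log2 0.42, adjusted p = 0.319), Itgax (log2 0.42, adjusted p = 0.255) and Irf8 (log2 -0.21, adjusted p = 0.374), further lineage genes, did not pass. Itgax passed with the cDC2 libraries fitted alone (adjusted p = 0.0486). Without MI 1 only 1 of the shared genes fell. Of 16 cDC1 identity genes 5 fell and 1 rose (median -0.17), and none rose without MI 1. Clec9a, the cDC1 receptor for actin of dead cells, was low in all cDC2 libraries, with 0, 0.397 and 0.771 CPM in MI 1 to 3 and at 10.9, 10.2, 9.74 and 8.705 CPM in SS 1 to 4. The fall of 24.9-fold (log2 -4.64 ± 0.69 SE, adjusted p = 3.01e-05) was 16.5-fold without MI 1 and 48.2-fold without MI 3. Batf3, a transcription factor of cDC1 that cDC2 also carry, was at 19.01, 23.3 and 20.8 CPM in MI 1 to 3 and at 49.3, 52.2, 46.3 and 44.2 CPM in SS 1 to 4 and fell 2.28-fold (log2 -1.19 ± 0.21 SE, adjusted p = 0.000222). Xcr1 stayed at or below 5.199 CPM in all 7 libraries (log2 -0.13, adjusted p = 0.91). The summed cDC1 list was 2029 to 2098 CPM in MI and 2224 to 2726 CPM in SS, against 20624 to 21908 CPM in SS cDC1.

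Among antigen presentation genes, 5 of 14 genes of MHC class II and its helpers rose and 1 fell (median log2 change 0.17), where 4.41% of all tested genes rose and 6.63% fell. The rises were in Ciita, the DO chains H2-Oa and H2-Ob and the processing enzymes Ifi30 and Lgmn, not in the class II chains that present peptide. H2-Oa, a chain of the DO modulator of peptide loading, was at 146, 148 and 161 CPM in MI 1 to 3 and at 44.4, 42.5, 58.5 and 54.9 CPM in SS 1 to 4 and rose 3.03-fold (log2 1.599 ± 0.35 SE, adjusted p = 0.00275). Ifi30, a thiol reductase of antigen processing, rose 1.46-fold (log2 0.55 ± 0.14 SE, adjusted p = 0.00951), and Ciita rose as given with the lineage genes. H2-Ab1 (log2 0.12, adjusted p = 0.73) and the invariant chain Cd74 (log2 -0.07, adjusted p = 0.878) did not pass. H2-DMa, a chain of the peptide editor DM, fell 1.52-fold (log2 -0.61 ± 0.14 SE, adjusted p = 0.00417) and did not pass without MI 1 (adjusted p = 0.0583), and 2 members fell without SS 1. For MHC class I, 3 of 17 genes fell, none rose and 14 did not pass (median -0.17). Rises numbered 1 at an unadjusted p under 0.05 in edgeR and 1 by DESeq2. The chaperone Pdia3 fell 1.37-fold (log2 -0.45 ± 0.10 SE, adjusted p = 0.00249). The falls of B2m (log2 -0.43, adjusted p = 0.043) and H2-D1 (log2 -0.404, adjusted p = 0.0368) did not pass when any library other than SS 4 was left out. The count of falls was then 1 without MI 1, MI 2, SS 1, SS 2 or SS 3. Counts of H2 genes are uncertain, since their copies are alike and Balb/c alleles were aligned to a reference of another strain.

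Costimulatory genes moved in both directions, with 3 of 17 higher and 3 lower (median 0.17). Cd86, the ligand of CD28 on T cells, was at 216, 221 and 178 CPM in MI 1 to 3 and at 96.6, 128, 130.4 and 116 CPM in SS 1 to 4. It rose 1.74-fold (log2 0.799 ± 0.18 SE, adjusted p = 0.00254), and no MI library overlapped an SS library. Tnfsf9, the ligand of 4-1BB, was at 358, 304 and 386 CPM in MI 1 to 3 and at 123, 181, 190.4 and 288 CPM in SS 1 to 4 and rose 1.79-fold (log2 0.84 ± 0.22 SE, adjusted p = 0.0107), though it did not pass without MI 3 (adjusted p = 0.0547). Its receptor gene Tnfrsf9 was at 46.3, 22.1 and 13.5 CPM in MI 1 to 3 and at 0.196, 1.597, 8.43 and 3.46 CPM in SS 1 to 4 and rose 7.996-fold (log2 2.999 ± 0.79 SE, adjusted p = 0.0117). Tnfrsf9 did not pass without MI 1 (adjusted p = 0.0965) and was 15.4-fold higher without SS 3. Icam1, an adhesion molecule of the T cell synapse, was at 196, 219 and 169 CPM in MI 1 to 3 and at 484, 705, 631 and 632 CPM in SS 1 to 4 and fell 3.15-fold (log2 -1.65 ± 0.23 SE, adjusted p = 9.2e-06). Cd80 (log2 -0.28, adjusted p = 0.584) and Cd40 (log2 0.04, adjusted p = 0.96) did not pass. The count of falls was 1 without MI 1 or MI 2.

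The maturation and migration programme, by which dendritic cells leave for the lymph node, had 1 gene of 23 that rose and none that fell (median log2 change 0.77), which for rises is near the 4.41% of all tested genes. Without SS 1 there was 1 fall. Falls numbered 4 at an unadjusted p under 0.05 in edgeR and 2 by DESeq2. Ccr7, the receptor that guides this migration, was at 1039, 535 and 412 CPM in MI 1 to 3 and at 67.3, 359, 928 and 324 CPM in SS 1 to 4. The groups overlapped and the gene did not pass (log2 0.66, adjusted p = 0.659). The gene that rose was Adam23, a membrane protein of the ADAM family, at 91.02, 80.7 and 80.1 CPM in MI 1 to 3 and at 18.5, 19.9, 36.3 and 36.6 CPM in SS 1 to 4 (log2 1.59, adjusted p = 0.0218). It did not pass when MI 1, MI 2, MI 3, SS 1 or SS 2 was left out (adjusted p up to 0.0811). Without SS 3, where Ccr7 was highest among the SS libraries, 3 members of the list rose.

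**Figure D4:**
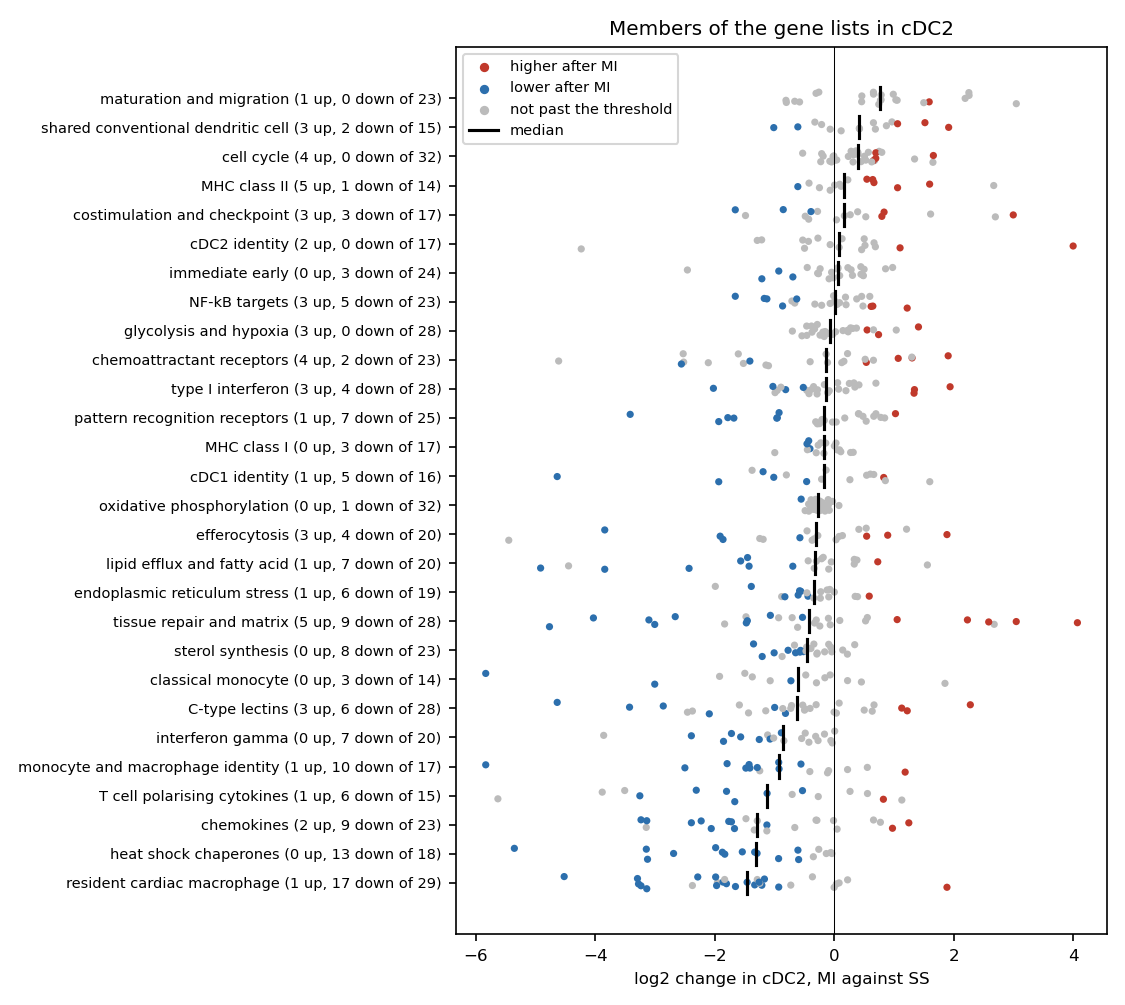
Log2 change in cDC2, MI against SS (horizontal axis), of every tested member of 28 gene lists, ordered by the median (black bar); red points are members that rose, blue points members that fell and grey points members that did not pass. Heat shock and resident macrophage genes lie mostly left of 0, and maturation genes lie mostly right of 0 with 1 member past the threshold.

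Of 15 cytokines that steer T cells, 6 fell and 1 rose (median log2 change -1.12), where 6.63% of all tested genes fell and 4.41% rose. The one that rose did not pass without MI 1, SS 1 or SS 2. Il6 was at 6.02, 6.84 and 6.45 CPM in MI 1 to 3 and at 36.7, 64.5, 52.7 and 91.8 CPM in SS 1 to 4 and fell 9.53-fold (log2 -3.25 ± 0.57 SE, adjusted p = 0.000172). Il1a, the membrane-bound alarmin, was at 9.32, 15.3 and 19.5 CPM in MI 1 to 3 and at 61.4, 99.4, 42.1 and 87.8 CPM in SS 1 to 4 and fell 4.95-fold (log2 -2.31 ± 0.31 SE, adjusted p = 4.81e-06). Every MI value of both was below every SS value. The survival factor gene Tnfsf13b (BAFF) fell 3.48-fold (log2 -1.801 ± 0.35 SE, adjusted p = 0.000619), and 2.61-fold without MI 2 or 5.52-fold without MI 3. Il18 fell 2.18-fold (log2 -1.12 ± 0.27 SE, adjusted p = 0.00527). Tgfb1, at 251, 266 and 272 CPM in MI 1 to 3 and at 422, 393, 381 and 323 CPM in SS 1 to 4, fell 1.44-fold (log2 -0.53 ± 0.14 SE, adjusted p = 0.0116) and did not pass without MI 1 (adjusted p = 0.075). Other inflammatory cytokines did not pass. Il1b was at 2221, 2784 and 2812 CPM in MI 1 to 3 and at 1813, 2601, 2147 and 2102 CPM in SS 1 to 4 (log2 0.27, adjusted p = 0.464). Tnf was at 114, 85.7 and 102 CPM in MI 1 to 3 and at 69.4, 66.7, 57.2 and 79.9 CPM in SS 1 to 4, above all SS values in MI, and did not pass (log2 0.56, adjusted p = 0.112), but passed with the cDC2 libraries fitted alone (adjusted p = 0.0333). Il12b (log2 1.13, adjusted p = 0.48) and Il10 (log2 -0.702, adjusted p = 0.616) had overlapping groups, and Il10 was under 4 CPM in all libraries.

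Of 23 chemokine genes 9 fell and 2 rose (median -1.29), and 1 rose without MI 2, MI 3 or SS 1. Ccl6, a CC chemokine of myeloid cells, was at 631, 598 and 790.3 CPM in MI 1 to 3 and at 2384, 4109, 3446 and 2653 CPM in SS 1 to 4 and fell 4.68-fold (log2 -2.23 ± 0.26 SE, adjusted p = 7.99e-07). Ccl9, from the same cluster, was at 607, 632 and 717 CPM in MI 1 to 3 and at 1512, 2636, 2239 and 1901 CPM in SS 1 to 4 and fell 3.18-fold (log2 -1.67 ± 0.25 SE, adjusted p = 2.77e-05). Ccl2, which draws monocytes through Ccr2, was at 22.97, 18.4 and 15.6 CPM in MI 1 to 3 and at 57.1, 81.7, 55.5 and 64.1 CPM in SS 1 to 4 and fell 3.396-fold (log2 -1.76 ± 0.27 SE, adjusted p = 2.67e-05). Ccl24, an eosinophil attractant also made by resident macrophages, was at 6.49, 6.94 and 12.2 CPM in MI 1 to 3 and at 41.4, 105, 106 and 69.1 CPM in SS 1 to 4 and fell 9.401-fold (log2 -3.23 ± 0.50 SE, adjusted p = 5.61e-05). None of these 4 overlapped between groups, as held for 1319 of the 1440 changed genes. The sums of macrophage markers given with the macrophage genes moved the same way. Among 23 receptors for attractants, 4 rose and 2 fell (median -0.13). Gpr183, the oxysterol receptor that positions cDC2 in lymphoid tissue, was at 255, 310.2 and 266 CPM in MI 1 to 3 and at 100.5, 108, 175 and 143 CPM in SS 1 to 4. It rose 2.104-fold (log2 1.07 ± 0.17 SE, adjusted p = 4.02e-05). Ccr6, the receptor of Ccl20, was at 48.00, 45.1 and 44.1 CPM in MI 1 to 3 and at 7.95, 8.09, 19.4 and 13.3 CPM in SS 1 to 4 and rose 3.76-fold (log2 1.91 ± 0.54 SE, adjusted p = 0.0179), but did not pass without MI 1, MI 2, SS 1 or SS 2 (adjusted p up to 0.0676). The formyl peptide receptor gene Fpr2 fell 5.88-fold (log2 -2.56 ± 0.48 SE, adjusted p = 0.000419), and 9.33-fold without MI 3. The complement receptor gene C5ar1 fell 2.66-fold (log2 -1.41 ± 0.41 SE, adjusted p = 0.0225) and did not pass without MI 1, MI 2, MI 3 or SS 2, or by DESeq2 (adjusted p = 0.171). With each library left out in turn 1 to 3 receptors rose, with 1 without MI 2 or SS 2 and 2 without MI 3 or SS 1. The falls numbered 1 without MI 1, MI 2, MI 3 or SS 2 and 4 without SS 4.

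Interferon-stimulated genes were split. Of 28 type I interferon genes 3 rose, 4 fell and 21 did not pass (median log2 change -0.14). The 3 that rose were Ifit family members, which bind foreign RNA and can share reads with each other. Ifit1 was at 35.1, 19.04 and 28.4 CPM in MI 1 to 3 and at 7.16, 9.05, 5.58 and 6.83 CPM in SS 1 to 4 and rose 3.84-fold (log2 1.94 ± 0.32 SE, adjusted p = 7.24e-05), and Ifit2 rose 2.53-fold (log2 1.34 ± 0.29 SE, adjusted p = 0.00223). Oasl1, a homologue of the 2'-5' oligoadenylate synthetases, was at 20.99, 10.9 and 16.4 CPM in MI 1 to 3 and at 67.1, 86.4, 50.9 and 57.1 CPM in SS 1 to 4 and fell 4.06-fold (log2 -2.02 ± 0.26 SE, adjusted p = 2.21e-06). The nucleic acid sensor Zbp1 fell 2.03-fold (log2 -1.02 ± 0.23 SE, adjusted p = 0.00275). Of 20 interferon gamma genes 7 fell and none rose (median -0.86), and without MI 2 only 3 fell. Gbp4, a guanylate-binding protein, was at 10.9, 12.1 and 12.6 CPM in MI 1 to 3 and at 31.7, 45.6, 39.7 and 54.6 CPM in SS 1 to 4 and fell 3.61-fold (log2 -1.85 ± 0.38 SE, adjusted p = 0.00107). The T cell attractant Cxcl10 was at 13.6, 12.99 and 10.1 CPM in MI 1 to 3 and at 26.5, 39.3, 44.9 and 50.7 CPM in SS 1 to 4 and fell 3.29-fold (log2 -1.72 ± 0.36 SE, adjusted p = 0.00112). Cxcl9 fell 5.24-fold (log2 -2.39 ± 0.60 SE, adjusted p = 0.00825), 8.67-fold without MI 1 and 3.82-fold without SS 3, and did not pass without MI 2 (adjusted p = 0.0628) or MI 3 (adjusted p = 0.0592).

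Of 25 pattern recognition receptors 7 fell and 1 rose (median -0.16). Without SS 1 there were 2 rises. The one that rose in the full comparison was Tmem173, which encodes STING, the adaptor that senses cyclic dinucleotides. It was at 259, 332 and 327 CPM in MI 1 to 3 and at 136, 151, 151 and 163 CPM in SS 1 to 4, a rise of 2.04-fold (log2 1.03 ± 0.12 SE, adjusted p = 1.74e-07). Tlr11 and Tlr12, endosomal sensors of profilin, fell together. Tlr12 was at 1.32, 0.694 and 3.56 CPM in MI 1 to 3 and at 22.1, 17.6, 22.2 and 17.97 CPM in SS 1 to 4 and fell 10.7-fold (log2 -3.41 ± 0.54 SE, adjusted p = 6.24e-05), and 19.5-fold without MI 3. Tlr11 was at 7.15, 15.2 and 21.3 CPM in MI 1 to 3 and at 47.97, 49.5, 55.6 and 68.6 CPM in SS 1 to 4 and fell 3.81-fold (log2 -1.93 ± 0.34 SE, adjusted p = 0.000246). The RNA sensor gene Tlr8 fell 1.94-fold (log2 -0.96 ± 0.19 SE, adjusted p = 0.00103). Of 28 C-type lectins 6 fell and 3 rose (median -0.62). Cd207, which encodes langerin, was at 15.2, 19.5 and 11.8 CPM in MI 1 to 3 and at 109, 248, 147 and 162 CPM in SS 1 to 4 and fell 10.7-fold (log2 -3.42 ± 0.44 SE, adjusted p = 4.47e-06). Cd209b, a relative of Cd209a with which it can share reads, was at 22.5, 7.64 and 17.6 CPM in MI 1 to 3 and at 92.9, 119.9, 121 and 129 CPM in SS 1 to 4 and fell 7.26-fold (log2 -2.86 ± 0.55 SE, adjusted p = 0.000738). The beta-glucan receptor gene Clec7a fell 1.99-fold (log2 -0.995 ± 0.22 SE, adjusted p = 0.00226). Of 23 NF-kB targets 3 rose and 5 fell (median 0.01). The falls included Icam1, Tnfaip2 (log2 -1.17, adjusted p = 0.00364), the inhibitor Nfkbie (log2 -0.86, adjusted p = 0.00089) and the manganese superoxide dismutase gene Sod2 (log2 -0.63, adjusted p = 0.00233). The count of rises was 1 without MI 1, MI 2, SS 2 or SS 3.

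Heat shock chaperones were lower in MI cDC2. Of 18 tested genes 13 fell, none rose and 5 did not pass (median log2 change -1.31), and 12 to 14 fell with each library left out in turn. Their summed CPM was 4518 to 5973 in MI and 10676 to 16203 in SS (exact permutation p = 0.0571). Over all tested genes 6.63% fell. No rise was called for this list, for the classical monocyte, interferon gamma, oxidative phosphorylation or sterol lists, nor a fall for the cell cycle list, and the counts at an unadjusted p under 0.05 in edgeR and by DESeq2 were 0 too. These chaperones fold proteins and are switched on by heat shock factor, which binds heat shock elements in their promoters. Dnajb1, a co-chaperone of Hsp70 (chr8:83608193-83612653, plus strand), was at 173, 148 and 257 CPM in MI 1 to 3 and at 1899, 1688, 821 and 2315 CPM in SS 1 to 4. It fell 8.72-fold (log2 -3.12 ± 0.44 SE, adjusted p = 1.77e-05). Dnaja1, a relative of it, was at 141, 176 and 198 CPM in MI 1 to 3 and at 633, 747, 485 and 579 CPM in SS 1 to 4 and fell 3.56-fold (log2 -1.83 ± 0.24 SE, adjusted p = 3.79e-06). Hspa8, the constitutive Hsp70, was at 2145, 2478 and 2694 CPM in MI 1 to 3 and at 4132, 5515, 4536 and 4393 CPM in SS 1 to 4 and fell 1.904-fold (log2 -0.93 ± 0.14 SE, adjusted p = 1.06e-05). Hspb1, the small chaperone Hsp27, was at 0.0941, 0.992 and 0.963 CPM in MI 1 to 3 and at 33.6, 29.1, 8.32 and 41.6 CPM in SS 1 to 4 and fell 40.9-fold (log2 -5.35 ± 1.02 SE, adjusted p = 0.000755). No MI library reached an SS library in any of these genes, and SS 3 was the lowest SS library for Dnajb1, Dnaja1 and Hspb1. Hspe1, the mitochondrial co-chaperone Hsp10, was at 34.2, 47.5 and 39.3 CPM in MI 1 to 3 and at 114, 117, 74.3 and 89.4 CPM in SS 1 to 4 and fell 2.44-fold (log2 -1.29 ± 0.23 SE, adjusted p = 0.000247). It lies head to head with Hspd1 and overlaps it at the start, so without strand information their reads there cannot be told apart.

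A strict heat shock element (GAA, any 2 bases, TTC, any 2 bases and GAA, on either strand) was looked for in the 250 bases before the start of each gene (RefSeq, GRCm38.p6). It was found for 2 of the 10 fallen chaperones with a promoter in the table, Hspe1 and Hspd1, which share the same stretch, against 0.514% of 27025 genes. The element was not found for Hspb1, the chaperone with the largest fitted fall, and that says only that these letters are not in this window. Both are shown on the plus strand, 5′ to 3′, as 1 stretch with the letters and, from the 8 fallen chaperones without them, 1 stretch without; capitals mark 2 overlapping matches, which begin 89 and 84 bases before the Hspe1 start. The Hspe1 stretch is 30 bases around the matches, all inside an annotated exon of Hspd1 on the minus strand (GENCODE M21), and the Hspb1 stretch the 150 bases before its start.
Hspe1 chr1:55088053-55088082: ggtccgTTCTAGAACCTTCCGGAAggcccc
Hspb1 chr5:135887769-135887918: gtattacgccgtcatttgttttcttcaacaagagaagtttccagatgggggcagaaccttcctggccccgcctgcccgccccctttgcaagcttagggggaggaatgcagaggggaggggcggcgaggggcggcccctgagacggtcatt

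The heat shock list was lower in the other types too. The list median was -0.98 in cDC1, -0.83 in moDCs and -0.79 in macrophages. For Dnajb1 the log2 changes were -3.12 in cDC2, -2.91 in cDC1, -3.199 in moDCs and -2.76 in macrophages, and the difference between cDC2 and the mean of the other 3 types did not pass (log2 difference -0.17 ± 0.44 SE, adjusted p = 0.945). Endoplasmic reticulum stress genes fell in 6 of 19 cases and rose in 1 (median -0.34). Atf4, the transcription factor of the integrated stress response, was at 41.1, 51.4 and 45.8 CPM in MI 1 to 3 and at 124, 149.9, 111 and 96.97 CPM in SS 1 to 4 and fell 2.61-fold (log2 -1.39 ± 0.20 SE, adjusted p = 1.19e-05). The chaperone gene Hspa5 fell 1.49-fold (log2 -0.58 ± 0.12 SE, adjusted p = 0.000973) and Xbp1 1.47-fold (log2 -0.56 ± 0.14 SE, adjusted p = 0.00829), the latter not passing without MI 1 (adjusted p = 0.0601), where the count of falls was 2. In all 2 members rose without SS 3 or SS 4. Edem1, which helps clear misfolded glycoproteins, rose 1.503-fold (log2 0.59 ± 0.14 SE, adjusted p = 0.00587). Of 24 immediate early genes 3 fell and none rose (median 0.06). Rises numbered 4 at an unadjusted p under 0.05 in edgeR and 0 by DESeq2. Jund, an AP-1 subunit, was at 1205, 1241 and 1395 CPM in MI 1 to 3 and at 2275, 2734, 2489 and 2235 CPM in SS 1 to 4 and fell 1.901-fold (log2 -0.93 ± 0.14 SE, adjusted p = 2.63e-05). Klf2 fell 2.31-fold (log2 -1.21 ± 0.26 SE, adjusted p = 0.00238), and Klf6 fell 1.61-fold (log2 -0.69 ± 0.20 SE, adjusted p = 0.0196) without passing when MI 1, MI 3 or SS 1 was left out.

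Sterol synthesis and uptake genes fell modestly. Of 23 tested genes 8 fell and none rose (median log2 change -0.46), and 5 fell without MI 1 or MI 2. The summed CPM was 1382 to 1592 in MI and 1970.1 to 2199.9 in SS. Insig1, a sensor that holds back sterol-regulatory factors, was at 105, 104 and 122 CPM in MI 1 to 3 and at 221, 257, 211 and 193 CPM in SS 1 to 4 and fell 2.01-fold (log2 -1.004 ± 0.16 SE, adjusted p = 3.23e-05). Stard4, a cholesterol carrier, fell 2.55-fold (log2 -1.35 ± 0.27 SE, adjusted p = 0.000673) and the synthesis enzyme gene Cyp51 fell 1.71-fold (log2 -0.77 ± 0.15 SE, adjusted p = 0.000812). The groups did not overlap in any of these 3. These genes are targets of sterol regulatory element-binding proteins. The sterol element TCACNCCAC was looked for on either strand in the 250 bases before the start. It was found for 1 of the 4 fallen genes with a promoter in the table, Hmgcs1, and 0 of 12 others. Of 27025 genes 1.22% held it. Searches for other lists found AP-1 sites for 0 of 3 fallen immediate early genes. Hypoxia response elements were found for 1 of 2 risen glycolysis and hypoxia genes and 13 of 22 that did not pass. Interferon-stimulated response elements were found for 2 of 3 risen, 1 of 3 fallen and 6 of 13 other type I interferon genes. Whether an element marks the changed genes was not tested. The 150 bases before the Hmgcs1 start (GRCm38.p6, plus strand, 5′ to 3′) are shown for the match, in capitals, which begins 137 bases before the start.
Hmgcs1 chr13:119690201-119690350: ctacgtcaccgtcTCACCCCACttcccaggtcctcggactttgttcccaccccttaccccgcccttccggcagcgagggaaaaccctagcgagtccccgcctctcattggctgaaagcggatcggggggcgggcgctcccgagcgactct

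Several genes of fatty acid handling had larger falls. Of 20 genes of lipid efflux and fatty acid metabolism 7 fell and 1 rose (median -0.31). Cd36, a scavenger receptor that takes up fatty acids and apoptotic cells (chr5:17781690-17888801, minus strand), was at 23.1, 21.4 and 16.8 CPM in MI 1 to 3 and at 403, 343, 225 and 199 CPM in SS 1 to 4. It fell 14.3-fold (log2 -3.84 ± 0.30 SE, adjusted p = 1.37e-09). Lpl, the lipase that frees fatty acids from lipoproteins, was at 120.1, 54.2 and 77.7 CPM in MI 1 to 3 and at 313, 500.5, 526 and 471 CPM in SS 1 to 4 and fell 5.38-fold (log2 -2.43 ± 0.29 SE, adjusted p = 9.85e-07). Pparg, a nuclear receptor for fatty acids, was at 24.3, 14.8 and 25.04 CPM in MI 1 to 3 and at 90.4, 55.04, 49.5 and 38.7 CPM in SS 1 to 4 and fell 2.73-fold (log2 -1.45 ± 0.24 SE, adjusted p = 8.73e-05). All MI libraries lay below all SS libraries in the 3 genes, and SS 1 was highest for Cd36 and Pparg and lowest for Lpl. Macrophage and endothelial cells also express them, and the summed markers of both are given with the genes of those cells. The single rise did not pass when any library except SS 3 was left out. Few energy metabolism genes passed the threshold. Of 28 glycolysis and hypoxia genes 3 rose and none fell (median -0.06): Pdk1, which diverts pyruvate from mitochondria (log2 1.41, adjusted p = 0.00282), Ndrg1 (log2 0.74, adjusted p = 0.0194) and Bnip3 (log2 0.55, adjusted p = 0.0191). The calls of Ndrg1 and Bnip3 were lost without MI 3 or SS 4, that of Ndrg1 also without SS 3 and that of Bnip3 without MI 2 or SS 1. Falls numbered 4 at an unadjusted p under 0.05 in edgeR and 0 by DESeq2, and 1 passed without SS 3. Of 32 oxidative phosphorylation genes 1 fell, Cycs (log2 -0.55, adjusted p = 0.0265), and 31 had a log2 change below 0 (median -0.27). The median of this list was 0.19 in cDC1, 0.04 in moDCs and 0.03 in macrophages. Its summed CPM in cDC2 was 5379 to 6658 in MI and 6581 to 8638 in SS (exact permutation p = 0.171). Cycs did not pass without MI 1, MI 3, SS 1 or SS 2, and 2 genes fell without SS 1 or SS 4. Of 32 cell cycle genes 4 rose and none fell (median 0.396), but none rose without MI 1, SS 1 or SS 2 and 8 rose without SS 3. Ccnd1, a G1 cyclin and 1 of the 4, was at 80.00, 74.1 and 64.2 CPM in MI 1 to 3 and at 28.5, 44.8, 50.1 and 55.9 CPM in SS 1 to 4 (log2 0.699, adjusted p = 0.035), and it did not pass without MI 2 either.

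Repair and matrix genes changed in both directions, with 5 of 28 higher and 9 lower (median log2 change -0.43). Mmp14, a membrane-bound matrix protease, was at 175, 138 and 128 CPM in MI 1 to 3 and at 16.5, 16.8, 42.7 and 22.1 CPM in SS 1 to 4. It rose 6.01-fold (log2 2.59 ± 0.35 SE, adjusted p = 9.42e-06), and the MI values did not overlap the SS values. Tgfbi, a matrix protein induced by TGF-beta, was at 919, 863 and 828 CPM in MI 1 to 3 and at 364, 455, 475 and 381 CPM in SS 1 to 4 and rose 2.08-fold (log2 1.06 ± 0.12 SE, adjusted p = 1.22e-07). Gpnmb, a lysosomal glycoprotein of lipid-laden and repair macrophages, was at 143, 30.2 and 113 CPM in MI 1 to 3 and at 2.06, 1.597, 11.2 and 7.86 CPM in SS 1 to 4. Its rise of 16.8-fold (log2 4.07 ± 1.06 SE, adjusted p = 0.0122) did not pass without MI 1 (adjusted p = 0.0541). Retnla, given among the largest falls, and Thbs1 went the other way. Thbs1, the matrix protein thrombospondin 1, was at 3.95, 5.26 and 12.1 CPM in MI 1 to 3 and at 35.6, 66.1, 77.9 and 64.9 CPM in SS 1 to 4 and fell 8.58-fold (log2 -3.101 ± 0.58 SE, adjusted p = 0.000582), and 13.3-fold without MI 3. The count of falls was 5 without MI 1. Of 20 genes for the uptake of dying cells 3 rose and 4 fell (median -0.303). Timd4 rose, while Cd36, Gas6 and Cd300lb fell. Gas6, the bridge between phosphatidylserine and TAM receptors, was at 2.54, 1.88 and 2.22 CPM in MI 1 to 3 and at 6.57, 12.2, 6.35 and 7.21 CPM in SS 1 to 4 and fell 3.63-fold (log2 -1.86 ± 0.31 SE, adjusted p = 0.000127). The phosphatidylserine receptor gene Cd300lb was at 45.8, 36.2 and 35.3 CPM in MI 1 to 3 and at 222, 134, 128 and 103 CPM in SS 1 to 4 and fell 3.75-fold (log2 -1.91 ± 0.31 SE, adjusted p = 0.000103).

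Markers of other cells were also measured in the cDC2 libraries, and some were lower in MI. The endothelial sums given with Fabp4 overlapped (exact permutation p = 0.286), and 2 of 11 tested markers were lower. Neutrophil markers summed to 19.9 to 31.2 and 35.01 to 144 CPM (exact permutation p = 0.0571), with 2 of 8 lower, and 3 had no read in MI. The natural killer sums overlapped as well (exact permutation p = 0.229), with 2 of 8 markers lower. B cell markers summed to 7.64 to 12.9 and 15.01 to 22.2 CPM (exact permutation p = 0.0571), and none of the 6 tested passed. Falls among them numbered 4 at an unadjusted p under 0.05 in edgeR and 2 by DESeq2. T cell markers summed to 18.9 to 27.6 and 10.2 to 51.98 CPM (exact permutation p = 0.514), with 1 of 9 lower. Pax5, a B cell marker, had no read in any cDC2 library. Fibroblast markers summed to 1146 to 1453 CPM in MI and 771 to 1064 CPM in SS, almost all of it from Gsn, the actin-severing protein gelsolin, which many cells make and which is named after its values were seen. Gsn had a mean of 1322 CPM in MI and 928 CPM in SS and rose 1.42-fold (log2 0.51 ± 0.11 SE, adjusted p = 0.00151). The other 9 of the 10 fibroblast markers had log2 changes below 0, did not pass, and had means of at most 1.61 CPM in MI and 5.32 CPM in SS. None of the neutrophil markers passed without MI 1, MI 2, MI 3, SS 1 or SS 2. Of the natural killer markers 1 passed without MI 1, MI 2 or SS 2 and up to 4 otherwise. The part of these cells in the falls of single genes was not tested.

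The MI effect in cDC2 was then tested against that in the other sorted types. It differed from cDC1 for 549 genes (4.21% of those tested), with 340 more positive and 209 more negative in cDC2. Against moDCs it differed for 118 genes (0.905%), 54 more positive and 64 more negative. Against the mean of the other 3 types it differed for 496 genes (3.80%), 226 more positive and 270 more negative, and 385 of these were also changed within cDC2. Without MI 1 the last counts were 138 and 165, without MI 2 138 and 150. Without MI 3 or SS 2 the more positive genes numbered 150 or 149. Against moDCs they were 31 and 27 without MI 2, and 42 genes were more negative without SS 2. DESeq2 called 104 and 119 genes against moDCs.

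Some genes rose in cDC2 beyond their change in the other types. For Trp53i11, a p53-inducible gene, the log2 changes were 2.304 in cDC2, -0.22 in cDC1, -0.63 in moDCs and -1.48 in macrophages. The difference from the mean of the other 3 was 3.08 ± 0.29 SE, adjusted p = 2.16e-08. In cDC2 the gene was at 119, 136 and 136 CPM in MI 1 to 3 and at 18.2, 24.9, 27.7 and 34.7 CPM in SS 1 to 4. For Timd4 the log2 changes were 1.89 in cDC2, -1.85 in cDC1, 0.06 in moDCs and -2.46 in macrophages (difference 3.31 ± 0.39 SE, adjusted p = 2.47e-06). Timd4 thus rose in cDC2 and fell in cDC1 and macrophages. Enpp1 rose in cDC2, moDCs and macrophages, but by more in cDC2 (difference 3.03 ± 0.43 SE, adjusted p = 4.1e-05), with log2 changes of 3.92 in cDC2, 0.09 in cDC1, 1.18 in moDCs and 1.39 in macrophages. Tmem231, a protein of the ciliary transition zone, was at 26.4, 29.7 and 28.8 CPM in MI 1 to 3 and at 4.81, 2.98, 3.39 and 4.59 CPM in SS 1 to 4 and differed likewise (difference 2.41 ± 0.42 SE, adjusted p = 0.00042). The T cell ligand Cd86 changed by 0.799 in cDC2, -0.06 in cDC1, -0.39 in moDCs and -0.995 in macrophages (difference 1.28 ± 0.20 SE, adjusted p = 0.000137). Gpr183 changed by 1.07 in cDC2, 0.46 in cDC1, -0.29 in moDCs and -0.69 in macrophages (difference 1.25 ± 0.19 SE, adjusted p = 9.89e-05). Tnf did not pass within cDC2 and fell in cDC1, with log2 changes of 0.56 in cDC2, -2.31 in cDC1, -0.44 in moDCs and -0.21 in macrophages (difference 1.55 ± 0.26 SE, adjusted p = 0.000289).

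Falls that were larger in cDC2 than in the other types included Lyz2, with log2 changes of -2.498 in cDC2, -1.05 in cDC1, -0.52 in moDCs and -0.18 in macrophages (difference -1.91 ± 0.23 SE, adjusted p = 2.53e-06). Cd36 fell in all 4 types and by most in cDC2, with -3.84 in cDC2, -0.95 in cDC1, -1.91 in moDCs and -1.899 in macrophages (difference -2.25 ± 0.31 SE, adjusted p = 3.32e-05). Pparg fell in cDC2 and rose in cDC1 and macrophages, with -1.45 in cDC2, 1.17 in cDC1, 0.29 in moDCs and 1.095 in macrophages (difference -2.301 ± 0.28 SE, adjusted p = 1.77e-06). Cebpb changed by -1.79 in cDC2, 0.41 in cDC1, -0.17 in moDCs and 0.65 in macrophages (difference -2.09 ± 0.30 SE, adjusted p = 5.06e-05). Ccr2 did not pass in cDC2 and rose in the other types, by most in macrophages, with 0.23 in cDC2, 0.58 in cDC1, 0.88 in moDCs and 2.34 in macrophages (difference -1.04 ± 0.16 SE, adjusted p = 0.00011). Against cDC1 alone, the difference for Clec9a was -4.702 ± 0.79 SE, adjusted p = 0.00042, or -5.66 without MI 3, and its log2 change in cDC1 itself was 0.07. For Cd209a it was 2.77 ± 0.53 SE, adjusted p = 0.00187, with a fall of 2.69 on the log2 scale in cDC1, where its mean was 21.9 CPM in SS and 3.37 CPM in MI. Against moDCs, Hmox1, the haem-degrading enzyme, differed by -2.12 ± 0.35 SE, adjusted p = 0.00113. It was at 41.2, 29.2 and 35.5 CPM in MI 1 to 3 and at 291, 289.9, 141 and 293 CPM in SS 1 to 4 in cDC2 and changed by -2.84 in cDC2, -1.35 in cDC1, -0.73 in moDCs and -0.596 in macrophages. Ecm1, a secreted matrix protein, was at 57.04, 46.5 and 57.5 CPM in MI 1 to 3 and at 303, 497, 452 and 377 CPM in SS 1 to 4 in cDC2 and differed from moDCs by -2.57 ± 0.42 SE, adjusted p = 0.00113. Cep170b rose in cDC2 and had a log2 change of -0.09 in moDCs, a difference of 3.49 ± 0.63 SE, adjusted p = 0.00243.

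**Figure D5:**
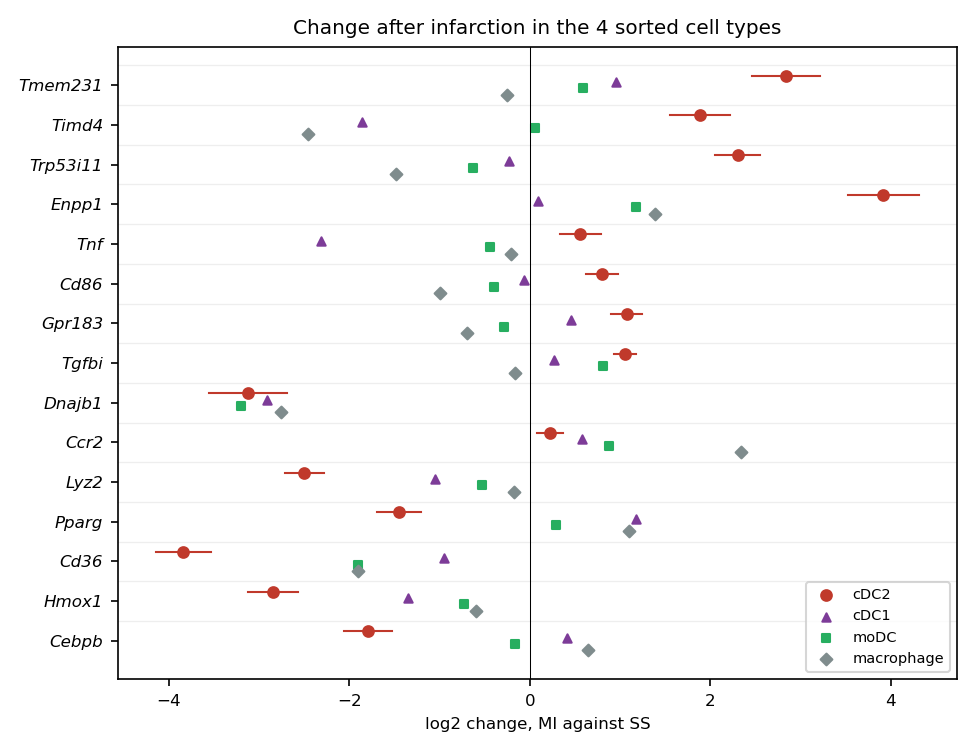
Fitted log2 change, MI against SS (horizontal axis), of 15 genes in cDC2 (red circles, with bars of 1 standard error) and in cDC1, moDCs and macrophages (points without error bars). Trp53i11 is right of 0 in cDC2 and left of 0 in the other types, Dnajb1 is far left in all 4 types, and Cd36 and Lyz2 lie farthest left in cDC2.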

How the data were processed

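Hearts of Balb/c mice were digested and 4 cell types sorted; RNA was amplified with SMART-Seq v4 and read on a NextSeq500, per the labels' protocols. The authors deposited a table of raw read counts per gene symbol for each library. The submitters' processing notes name FastQC 0.11.4, Trimmomatic 0.35, TopHat2 2.1.0, SAMtools 0.1.18 and the mm10 build. The counting program, its annotation and its strand setting are named in none of the sources used here. Gene positions are from GENCODE M21 and promoters from RefSeq (GRCm38.p6).

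Of 24421 gene symbols, 13039 passed edgeR's filterByExpr (minimum count 10) and were fitted over all 31 libraries in 8 groups with TMM scaling (edgeR 4.0.16, robust quasi-likelihood F test, R 4.3.3). The 5 rows naming no gene were left out; reads in no feature made up 6.42% to 14.6% of cDC2 libraries. P-values were adjusted by Benjamini-Hochberg over all tested genes. A gene is called changed at an adjusted p under 0.05. CPM are normalized with the same factors. SE is the log2 change divided by the square root of its F. Differences between types were contrasts in the same fit. The 1112 tested genes with no read in a group of another type can give no usable difference. They were still tested and not taken out of the counts of differing genes, and how many of those they make up was not counted.

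The members and gene lists were chosen with earlier results of these data known. Genes named are the 12 largest changes in each direction without overlap and at least 10 CPM in the higher group, up to 4 changed genes per list, a fixed set of cell identity and cytokine genes, and the 6 largest differences per contrast and direction; some genes that meet these rules are not reported here. Near-identical genes (Lyz1 and Lyz2, Hspa1a and Hspa1b, the Cd209, Ifit, Gbp and H2 families) may share reads. On simulated data with 12778 genes tested, 24% of 2-fold and 96% of 4-fold changes were recovered, and 1 of 121 calls was false. Exact permutation tests of 3 against 4 libraries cannot give a p below 0.0571. Alternatives were RLE and upper-quartile scaling, no filter, each library left out, SS pairs, cDC2 libraries alone, a replicate block (for differences between types also within MI and within SS, added after seeing the data) and DESeq2 1.42.0.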

Additional observations from a re-analysis of the deposited data

Results flagged for a closer look

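In 4 of 96 sets of 4 SS values printed for genes or lists, 1 library stood far from the others by Dixon's test. Chance flags about 1 in 20 groups. Cdh1 was at 44.2 CPM in SS 4, apart from the other 3 SS libraries. Gas6 was at 12.2 CPM in SS 2, apart from the other 3 SS libraries. Hmox1 was at 141 CPM in SS 3, apart from the other 3 SS libraries. Kit was at 63.03 CPM in SS 3, apart from the other 3 SS libraries.

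The MI effect in cDC2 differed from that of other types, by edgeR's quasi-likelihood test of the difference, for the genes given with their values above. Against cDC1 the log2 differences were Clec9a -4.702 (adjusted p = 0.00042) and Cd209a 2.77 (adjusted p = 0.00187). Against moDCs they were Ecm1 -2.57 (adjusted p = 0.00113), Hmox1 -2.12 (adjusted p = 0.00113) and Cep170b 3.49 (adjusted p = 0.00243). Against the mean of the other 3 types they were Pparg -2.301 (adjusted p = 1.77e-06), Cd36 -2.25 (adjusted p = 3.32e-05), Cebpb -2.09 (adjusted p = 5.06e-05), Lyz2 -1.91 (adjusted p = 2.53e-06), Ccr2 -1.04 (adjusted p = 0.00011), Gpr183 1.25 (adjusted p = 9.89e-05), Cd86 1.28 (adjusted p = 0.000137), Tnf 1.55 (adjusted p = 0.000289), Tmem231 2.41 (adjusted p = 0.00042), Enpp1 3.03 (adjusted p = 4.1e-05), Trp53i11 3.08 (adjusted p = 2.16e-08) and Timd4 3.31 (adjusted p = 2.47e-06). Each of these is a difference of log2 changes, and a negative value means a lower change in cDC2.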

How the results depend on the processing

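With each library left out in turn, 345 to 626 genes were higher and 526 to 924 lower in MI cDC2. The genes with a more positive effect in cDC2 numbered 237 to 336 against cDC1, 31 to 62 against moDCs and 138 to 228 against the mean of the other 3 types, and those with a more negative effect 142 to 225, 27 to 79 and 150 to 291. With SS 1 and SS 4 as the only SS libraries there were 270 higher and 461 lower genes, 130 more negative than in cDC1, 24 more positive and 18 more negative than in moDCs, and 112 and 122 against the other 3. DESeq2 called 104 and 119 against moDCs and 357 more positive than the other 3. The causes of these shifts were not tested. Leaving out a library and the SS pairs also leave fewer libraries, while DESeq2 kept all of them.

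The replicate numbers did not pair MI with SS cDC2 libraries: the correlations of the deviations of MI and SS libraries of the same number were -0.062, 0.022 and -0.054 across genes, and no MI library correlated best with the SS library of its own number. A fit with the replicate number as a block called 781 higher and 1020 lower genes and 98 more negative than in moDCs, and with cDC2 libraries alone the block gave 549 and 650. Within a condition the labels give the same numbers to all 4 types, without saying what a number shares. Deviations of cDC2 and same-numbered libraries of other types correlated at 0.07 to 0.27 across genes in SS (12 pairs) and at -0.07 to 0.16 in MI (9 pairs). The tests between types take the libraries as independent. A replicate block within each condition, chosen after seeing the data, called 447 more positive and 283 more negative genes against cDC1, 80 and 109 against moDCs and 287 and 380 against the other 3, and changed no call among the 18 differences given with values. RLE scaling, upper-quartile scaling, no filter and cDC2 libraries alone gave counts within 1.5 times of those reported. Of 134 named genes called changed, 83 passed in the same direction under every setting, and none of 2142 values changed direction while 181 no longer passed. In the simulation, with its fixed dispersion and changes only in well-counted genes, 24% of 2-fold changes were recovered at this depth and number of libraries. A gene that did not pass may thus still differ.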

Other observations

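Some marker lists outside the comparisons above also had members that passed. The plasmacytoid and mural sums overlapped between the groups. Of the plasma cell markers 3 of 6 fell and 0 rose, and their summed CPM was 292 to 334 in MI and 443 to 594 in SS. Xbp1, which many secreting cells use, is 1 of them. Of the plasmacytoid dendritic cell markers 2 of 7 fell and 1 rose, with sums of 206 to 268 and 202 to 365 CPM. Of the mural cell markers 2 of 10 fell and 0 rose, with sums of 7.64 to 13.2 and 11.7 to 58.4 CPM. Of the cardiomyocyte markers 1 of 9 fell and 0 rose, with sums of 3.87 to 9.32 and 10.9 to 21.4 CPM. Of the red cell and platelet markers 1 of 4 fell and 0 rose, with sums of 0.992 to 2.601 and 8.04 to 28.3 CPM. No plasma, mural or red cell marker rose at an unadjusted p under 0.05 in edgeR or by DESeq2 (0 in both), and 1 cardiomyocyte marker did in each. Two-sided exact permutation p-values of these sums were 0.0571, 0.4, 0.171, 0.0571 and 0.0571. Without MI 1, 1 plasma cell marker fell, and the calls in the next 3 lists rested on single libraries too. No plasmacytoid marker fell without MI 2 and 1 without MI 1, MI 3 or SS 2. No mural marker fell without MI 1, MI 2 or SS 2 and 1 without MI 3 or SS 1. Of the cardiomyocyte markers 2 fell without MI 1 and 1 rose without MI 3.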
